A study of Mus musculus with 20 samples.

Results

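Arterioles of the mouse kidney were compared with whole kidney at the level of mRNA. The comparison used 8 of the 20 libraries of the series: 4 libraries of laser-microdissected arterioles and 4 libraries of whole kidney sections that were not microdissected. They were chosen by the section named in the table's header, arterioles or no laser microdissection, and by the treatment control. All kidneys came from untreated wild-type male mice of the strain C57BL6/OlaHsd, 8 to 12 weeks old. The libraries bear the numbers 93, 96, 98 and 100 in both groups, and values given per library follow that order. Nothing in the labels ties equal numbers to the same animal, and the p-values measure only the spread between these libraries.

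Arterioles are the small resistance vessels that bring blood to the glomeruli and carry it away. Their wall is built of an endothelium, an elastic lamina and a sheet of smooth muscle cells, and the contraction of that muscle, driven by calcium and by myosin phosphorylation, sets glomerular pressure and the flow to the rest of the nephron. The whole kidney is for the most part tubular epithelium, whose transporters reclaim the filtrate, so a vessel gene can be rare there and abundant in the vessel wall.

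Arterioles were recognised on cryosections by their shape after a hematoxylin stain, with no marker to tell afferent from efferent vessels, and the microdissected RNA went through a low-input library protocol with more PCR cycles. That difference in preparation cannot be told apart from the comparison. Library totals were 6121550 to 11443164 counts in arterioles and 7654464 to 12283098 in whole kidney. Arteriole libraries held at least 1 count for 11339 to 12516 genes and whole kidney libraries for 18272 to 20474. The means were 11838 ± 516 and 19290 ± 922 (SD, n = 4 each), and the groups did not overlap (exact permutation test, two-sided p = 0.0286, the lowest that 4 against 4 libraries allow). After thinning all libraries to the smallest total the means were 11281 ± 616 and 18641 ± 572, with the same p. Among genes at 100 CPM (counts scaled to a common normalised library total) or more on average, the median coefficient of variation between libraries was 68.3% in arterioles and 11.3% in whole kidney. In arterioles 5613 of the genes tested were under 1 CPM in 1 library and at 10 CPM or more in another, against 8 in whole kidney, so the spread in arterioles limits each value below.

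Of 12757 genes that passed the low-count filter, 1125 (8.82%) were higher in arterioles and 2424 (19.0%) were lower, where a call required a false discovery rate (FDR, the edgeR quasi-likelihood p adjusted by Benjamini-Hochberg over all genes tested) under 0.05 and a log2 fold change beyond 1 in either direction. Over all genes tested the log2 fold change had a median of 0.36. Its sign depended on the fit. The median was 0.74 with DESeq2's size factors, 0.53 with a filter at 10 CPM and 0.22 with all 20 libraries. It was -0.14 with DESeq2, -1.37 without a filter, -1.86 with voom and -2.07 with the library number as a block. Where one of these 7 fits turned the sign of a list's median, this is said beside it. All 4 arteriole libraries lay above all 4 whole kidney libraries for 1173 genes (9.19%) and below them for 3233 (25.3%). Of the lower calls, 1295 rested on 3 counts or fewer in the 4 arteriole libraries together, and 341 on none. In a fit of all 20 libraries, where the 5 groups share one estimate of the spread, 798 of 13813 genes (5.78%) were higher and 760 (5.50%) lower. Of the genes named by rule, 87 lost their call there and 39 lost it with voom. With 1 library left out in turn, 715 higher and 2189 lower calls were kept in all 8 fits. Leaving out a whole kidney library gave 766 to 778 higher calls and leaving out an arteriole library 1428 to 1519. The lower calls numbered 4095 without arteriole 98 and 3704 without arteriole 100, and 2274 to 3580 in the other leave-one-out fits. Below, a gene is called higher or lower only by these thresholds in the fit of the 8 libraries, and levels are CPM over normalised totals. Counts called per list stand against 8.82% higher and 19.0% lower over all genes tested. A count near those shares does not set a list apart. In bulk RNA fewer cells of a type and less RNA per cell cannot be told apart.

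Markers of the vessel wall are given first. All lists were chosen with earlier results of these data known, so counts per list are a description and not a test. Smooth muscle markers took 2.30, 2.27, 1.98 and 1.48% of all counts in arterioles and 0.0526 to 0.0684% in whole kidney, and 9 of 10 tested were higher. Arterial endothelial markers took 0.905 to 1.25% in arterioles and 0.0797 to 0.0934% in whole kidney, with 11 of 13 higher. Pan-endothelial markers took 0.258 to 0.313% and 0.0377 to 0.0423%, with 9 of 10 higher. In contrast, 0 of 10 capillary and venous endothelial markers were higher by edgeR (1 by DESeq2, 0 by limma, 1 without arteriole 98). The lower ones were 2 of 10, near the 19.0% lower over all genes tested. They were the apelin gene Apln and its receptor gene Aplnr, both at 0 counts in all arteriole libraries. The markers took 0.0278 to 0.0649% in arterioles and 0.0664 to 0.0736% in whole kidney. Totals behind these shares were not normalised, and the normalisation factors were 0.597 to 0.988 in arterioles and 1.20 to 1.27 in whole kidney. The small gap between the shares therefore does not show a lower level. Plvap, a gene of fenestrated endothelium, was at 84.2, 1.46, 32.7 and 75.9 CPM in arterioles and 80.8 to 96.2 CPM in whole kidney.

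**Figure D1:**
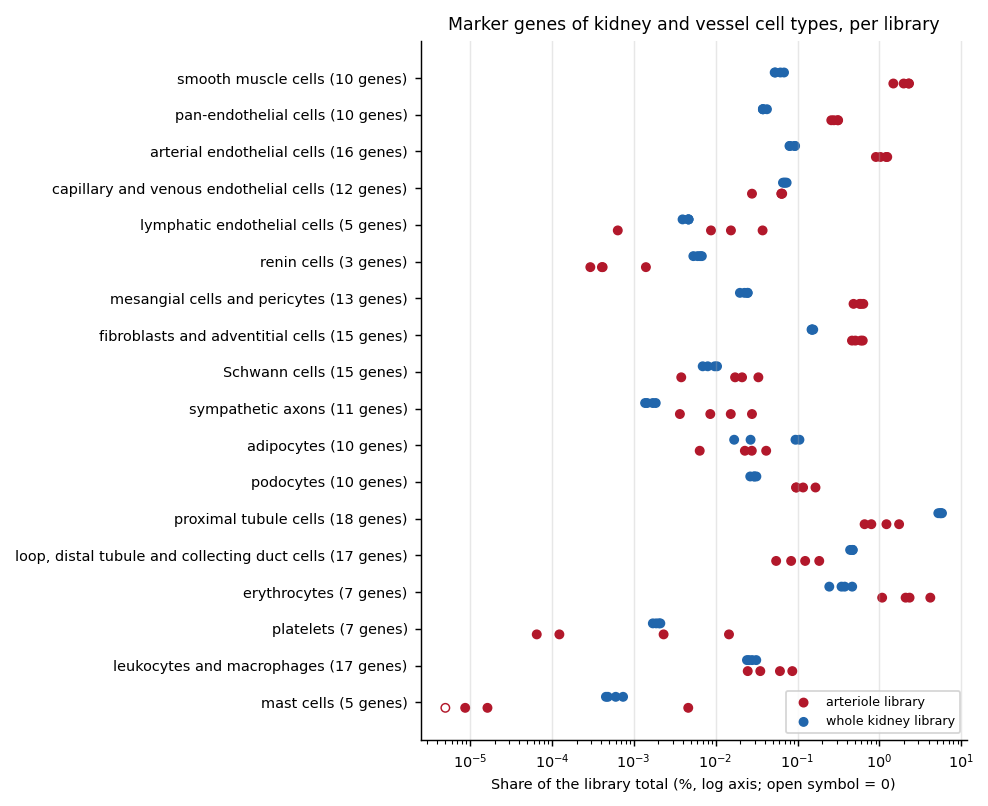
Share of the library total taken by the marker genes of each cell type (horizontal log axis, %; an open symbol marks 0), 1 point per library, red for arterioles and blue for whole kidney. The summed shares of smooth muscle, pan-endothelial, arterial endothelial, mesangial or pericyte, fibroblast, sympathetic axon, podocyte and erythrocyte markers lay higher in all 4 arteriole libraries. Those of renin cell, proximal tubule, distal tubule and, by a small gap, capillary and venous endothelial markers lay lower. Totals behind the shares were not normalised. Of the 3 sympathetic axon markers tested, 1 was called higher and 1 lower. Of the 10 podocyte markers, 2 were called higher and 5 lower, so the summed podocyte share does not stand for the list.

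Markers of other cells were present as well. Proximal tubule markers still took 0.797, 0.659, 1.22 and 1.74% of counts in arterioles against 5.24 to 5.81% in whole kidney. Markers of loop, distal and collecting duct epithelium took 0.0548 to 0.184% against 0.439 to 0.472%. Hemoglobin and other erythrocyte genes took 2.33, 4.18, 1.08 and 2.09% against 0.244 to 0.465%, with 6 of 7 higher. Fibroblast and adventitial markers took 0.462 to 0.626% against 0.148 to 0.155%, and 12 of 15 were higher, among them Pi16 (log2 fold change 5.22), a marker of adventitial fibroblasts. These markers moved with the comparison, and their part in the results below was not tested.

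Podocyte markers did not follow a single direction. Of 10 tested, 2 were higher and 5 lower (3 without whole kidney 98), with a median log2 fold change of -2.81. Podxl and Synpo, genes that are not restricted to podocytes, were higher (log2 fold change 3.50 and 3.79), whereas the slit diaphragm gene Nphs1 was lower (log2 fold change -2.83). Renin (Ren1), the enzyme that juxtaglomerular cells of the arteriole secrete, was at 4.46, 23.6, 2.99 and 4.82 CPM in arterioles and 45.2, 42.1, 47.9 and 47.1 CPM in whole kidney. Thus every arteriole library lay below every whole kidney library, but the fit did not call the gene (log2 fold change -2.34, FDR = 0.136). Ren1 was called lower without arteriole 96 (log2 fold change -3.49, FDR 0.00557). Akr1b7, an aldo-keto reductase of renin cells, was lower on 2 counts in arterioles (FDR = 0.00818).

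Most genes of the contractile apparatus were higher. Of the actin and myosin filament list of 26 genes, 24 passed the low-count filter, 19 were higher and 0 lower by edgeR (0 at an unadjusted p, 0 by DESeq2, 0 by limma, 1 without arteriole 93), with a median log2 fold change of 4.31. In arterioles Acta2, the smooth muscle actin (chr19:34241090-34255590, minus strand of GRCm38), was at 11660, 18940, 9165 and 7658 CPM, compared with 122.7, 112, 103 and 126 CPM in whole kidney (log2 fold change 6.68 ± 0.32, FDR = 2.09e-06; the error after ± is the standard error of the fit). The lowest arteriole library was still far above the highest whole kidney library. Myh11, the smooth muscle myosin heavy chain (chr16:14194535-14291372, minus strand), was at 5743, 5837, 4837 and 3583 CPM and 21.8, 27.3, 28.7 and 41.1 CPM (log2 fold change 7.40 ± 0.31, FDR = 1.05e-06), a narrow spread in both groups. Cnn1, which encodes calponin, an actin-binding inhibitor of the myosin ATPase, had the largest difference of these (log2 fold change 8.13 ± 0.73, FDR = 8.55e-05) and a wide spread of 640.4 to 3236 CPM in arterioles. The regulatory light chain gene Myl9, at 5342 to 11030 CPM against 67.6 to 78.7 CPM, tropomyosin Tpm2 and transgelin Tagln rose as well (log2 fold change 6.82, 6.71 and 5.81).

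Promoters of 4 contractile genes are shown because SRF, with myocardin, binds the CArG box, searched here as a run of 6 A or T bases between CC and GG, and TEAD factors bind the MCAT element CATTCC. Both strands were searched from 250 bases before to 50 bases after each RefSeq start site on GRCm38.p6. CArG matches stood in 5 of the 26 promoters of the actin and myosin list (19.2%), which cover 23 of its 26 genes, and in 535 of 32851 promoters of all genes (1.63%). No promoter of Myh11 or Tagln was among the 26, so the counts do not cover these genes. MCAT matches stood in 12 of the 26 (46.2%) and in 4817 of all (14.7%), and no CArG match overlapped an MCAT match in the list. The 5 promoters with a CArG match were those of Myl9, Cnn2, Myl6, Acta1 and Actc1, of which Acta1 and Actc1 did not pass the low-count filter. Promoters of genes called higher held a CArG match in 37 of 1169 (3.17%) and an MCAT match in 177 (15.1%). For genes called lower these were 22 of 2140 (1.03%) and 291 (13.6%). A match is a run of letters and not a shown binding site. Capitals mark the CArG match in Myl9 (chr2:156775214-156775513, plus strand), Cnn2 (chr10:79988350-79988649, plus strand) and Myl6 (chr10:128492960-128493259, minus strand), and the MCAT match in Acta2 (chr19:34255324-34255623, minus strand), whose window held no exact CArG match. Runs that differ from the CArG pattern at 1 base stood in the Acta2 window at ccctatatgg and ccttgtttgg. They stood in 10 of the 26 promoters of the list (38.5%) and 6527 of all (19.9%).
Myl9: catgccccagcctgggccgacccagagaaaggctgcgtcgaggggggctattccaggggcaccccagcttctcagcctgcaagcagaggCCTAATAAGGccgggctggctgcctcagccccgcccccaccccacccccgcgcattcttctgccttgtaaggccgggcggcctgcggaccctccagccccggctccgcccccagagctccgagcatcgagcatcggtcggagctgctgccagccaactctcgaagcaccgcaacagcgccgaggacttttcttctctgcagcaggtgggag
Cnn2: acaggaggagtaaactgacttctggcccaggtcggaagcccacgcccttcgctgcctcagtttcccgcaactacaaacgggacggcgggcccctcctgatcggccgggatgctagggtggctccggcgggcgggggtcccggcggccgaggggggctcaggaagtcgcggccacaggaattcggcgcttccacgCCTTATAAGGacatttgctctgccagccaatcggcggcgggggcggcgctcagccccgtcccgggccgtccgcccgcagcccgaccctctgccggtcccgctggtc
Myl6: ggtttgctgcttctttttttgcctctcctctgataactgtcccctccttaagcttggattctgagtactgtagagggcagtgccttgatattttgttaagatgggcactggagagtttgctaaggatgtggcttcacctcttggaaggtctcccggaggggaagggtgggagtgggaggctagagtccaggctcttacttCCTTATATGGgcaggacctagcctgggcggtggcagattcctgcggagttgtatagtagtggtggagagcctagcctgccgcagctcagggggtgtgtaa
Acta2: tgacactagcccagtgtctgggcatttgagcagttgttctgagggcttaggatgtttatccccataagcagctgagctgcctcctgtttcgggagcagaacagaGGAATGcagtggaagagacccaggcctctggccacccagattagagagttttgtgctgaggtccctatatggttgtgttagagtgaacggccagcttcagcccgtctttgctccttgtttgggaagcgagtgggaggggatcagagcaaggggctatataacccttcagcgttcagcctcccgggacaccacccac

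Proteins that anchor the filaments moved the same way. Of the dense plaque and intermediate filament list of 31 genes, 28 passed the low-count filter, 24 were higher and 0 lower by edgeR (0 at an unadjusted p, 0 by DESeq2, 0 by limma, 1 without arteriole 96), with a median log2 fold change of 3.56. Filamin A (Flna), the actin cross-linker of the cell cortex, was at 10550, 10940, 4334 and 4333 CPM in arterioles and 75.7 to 93.6 CPM in whole kidney (log2 fold change 6.55 ± 0.40, FDR = 1.02e-05). Pdlim7, a PDZ and LIM protein of stress fibres, was at 510.4, 417, 368 and 427 CPM against 8.46 to 12.5 CPM and had the tightest spread of the named members in arterioles. The intermediate filament genes Vim and Des were higher by 5.36 and 3.40 on the log2 scale, Des at 54.1 to 162 CPM against 7.78 to 18.7 CPM. Tgfb1i1, an adaptor of focal adhesions, was higher too (log2 fold change 5.29).

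Myosin phosphorylation is set by the kinase that calmodulin activates and by a phosphatase that opposes it. Of the list of 23 genes, 23 passed the low-count filter, 17 were higher and 1 lower, with a median log2 fold change of 2.7. The kinase gene Mylk was at 5543, 5769, 3755 and 3721 CPM and 197, 285, 232 and 310.2 CPM (log2 fold change 4.21 ± 0.25, FDR = 1.02e-05). Genes around the phosphatase were higher too, the myosin-targeting subunit Ppp1r12b at 255 to 1325 CPM against 7.28 to 10.2 CPM and Ppp1r14a, which encodes the phosphatase inhibitor CPI-17, at 90.0, 599, 102 and 214 CPM against 3.15 to 4.67 CPM. All 3 genes stood above whole kidney in every arteriole library. Arhgef17, a guanine nucleotide exchange factor, was at 417 to 667 CPM against 14.97 to 21.2 CPM, and Speg, a kinase of the same family as Mylk, had a log2 fold change of 5.73. Dapk3, a kinase that also acts on myosin light chains, was the single lower member and had 4 counts over the arteriole libraries (FDR = 0.00695).

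**Figure D2:**
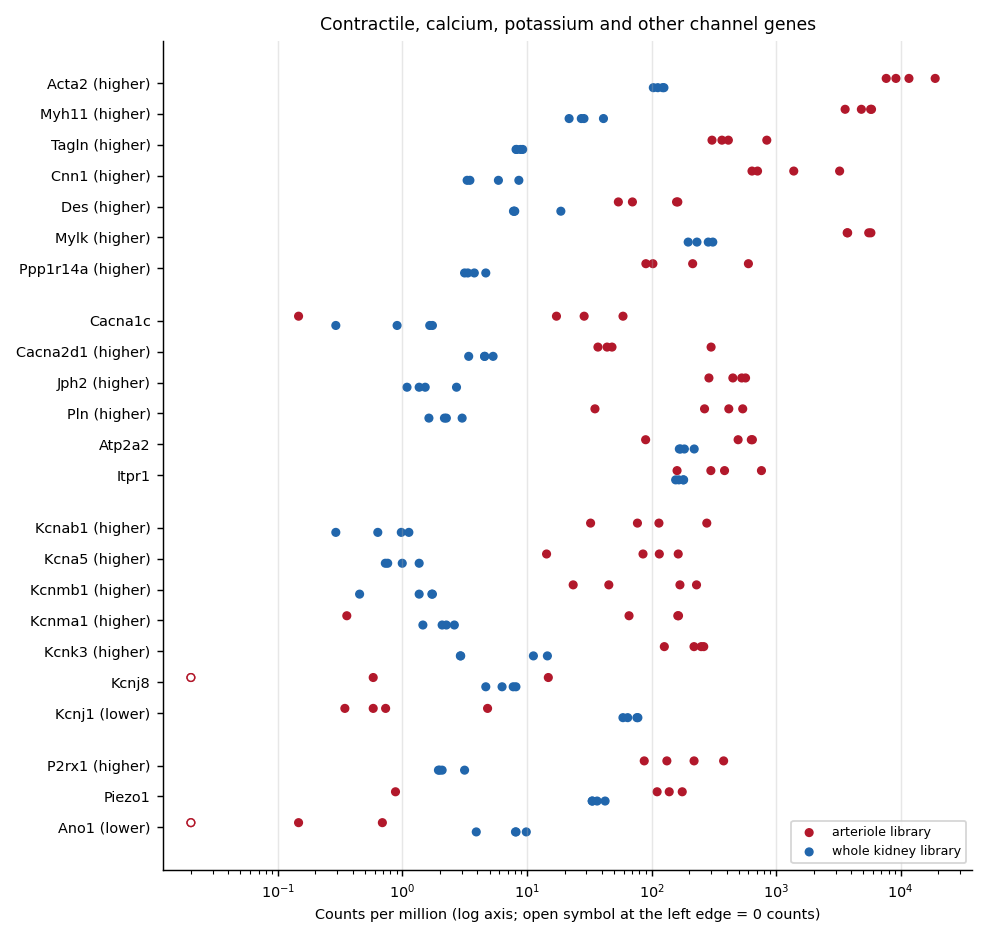
CPM of contractile, calcium, potassium and other channel genes (horizontal log axis; an open symbol at the left edge marks 0 counts), 1 point per library, with the call beside the name. For Acta2, Myh11, Cnn1, Mylk, Jph2, Pln and P2rx1 the 2 groups did not overlap, while Cacna1c, Atp2a2, Kcnj8 and Piezo1 had arteriole libraries both above and below the whole kidney values.

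Calcium enters smooth muscle through voltage-gated channels and is taken up and released by the sarcoplasmic reticulum. Of the voltage-gated calcium channel list of 15 genes, 8 passed the low-count filter, 2 were higher (1 without arteriole 100 or whole kidney 93, 96, 98 or 100) and 2 lower (4 without arteriole 98), with a median log2 fold change of 2.39 (of the opposite sign in 3 of 7 other fits, reaching -3.31). The pore gene Cacna1c, which encodes the L-type channel Cav1.2, was at 59.0, 0.146, 17.2 and 28.8 CPM in arterioles and 0.291, 1.74, 1.66 and 0.905 CPM in whole kidney. Arteriole 96 lay below all whole kidney libraries and the other three well above them, and the gene was not called (log2 fold change 4.51 ± 1.62, FDR = 0.0646); it was called higher without arteriole 96 or 98 (log2 fold change 4.68 to 4.92, FDR 0.00613 to 0.0441). The auxiliary subunit gene Cacna2d1 was called, at 48.1, 301, 37.1 and 43.9 CPM against 3.40 to 5.34 CPM (log2 fold change 4.59 ± 1.00, FDR = 0.00493). Cacnb2 was called as well (log2 fold change 4.64, FDR = 0.0305) but was not called without arteriole 100 or whole kidney 93, 96, 98 or 100 (log2 fold change 3.79 to 4.75, FDR 0.062 to 0.093). On the other side, Cacna1d, the pore of Cav1.3, had 0 counts in arterioles against 3.77 to 6.74 CPM, at least 48.5-fold lower at a floor of 3 counts over the group, and Cacnb4 had 4 counts there against 13.6 to 25.4 CPM. Cacna1h, the T-type channel Cav3.2, did not pass the filter, at 0, 0.293, 45.8 and 75.4 CPM against 0.109 to 0.272 CPM.

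Of the calcium store and pump list of 31 genes, 20 passed the low-count filter, 7 were higher (11 without arteriole 93) and 1 lower (2 to 3 without arteriole 93, 96, 98 or 100 or whole kidney 93), with a median log2 fold change of 1.91. Jph2, junctophilin 2, which ties the reticulum to the plasma membrane, was at 529.8, 449.5, 289 and 568 CPM and 1.36, 1.09, 1.52 and 2.71 CPM (log2 fold change 8.10 ± 0.56, FDR = 2.21e-05). Phospholamban (Pln), the brake on the reticulum pump, was at 35.1, 539, 417 and 266 CPM against 1.63 to 3.01 CPM (log2 fold change 7.12 ± 0.89, FDR = 0.000603). The groups did not overlap for either gene. The pump itself, Atp2a2, was at 89.6, 645, 495 and 632 CPM against 167 to 219.9 CPM and was not called (log2 fold change 1.34, FDR = 0.0925), with arteriole 93 below whole kidney and the other three above it. Atp2a2 was called higher without arteriole 93 (log2 fold change 1.70, FDR 0.00207). Similarly the inositol trisphosphate receptor gene Itpr1 was at 160.2 to 763 CPM against 156 to 181 CPM and not called (FDR = 0.0724), although it was called higher without arteriole 98 (log2 fold change 1.52, FDR 0.0111). Irag1, a substrate of the cyclic GMP kinase at that receptor, and the plasma membrane pump gene Atp2b4 were higher (log2 fold change 5.29 and 4.51). Srl, the reticulum protein sarcalumenin, was lower on 1 count in arterioles. The ryanodine receptor gene Ryr2 had 86 and 52 counts and was not tested.

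Potassium channel genes were called in both directions. Of a list of 98 genes, 30 passed the low-count filter, 8 were higher and 13 lower, with a median log2 fold change of -0.34 (of the opposite sign in 1 of 7 other fits, reaching 0.17). The 8 higher members included both subunits of the large-conductance calcium-activated channel: the pore gene Kcnma1 was at 162, 165, 65.9 and 0.357 CPM against 1.46 to 2.61 CPM and the smooth muscle subunit gene Kcnmb1 at 23.5, 169, 45.4 and 229.6 CPM against 0.453 to 1.74 CPM. Kcnmb1 was above whole kidney in all 4 libraries, whereas Kcnma1 was below whole kidney in arteriole 100. Kcnab1, a subunit of Kv1 channels, Kcnk3, the background channel TASK-1, and Kcna5, the channel Kv1.5, were higher by 7.35, 4.76 and 6.61 on the log2 scale, with Kcnk3 at 219, 262, 250.4 and 127 CPM against 2.92 to 14.6 CPM. Kcnj8, the pore of the ATP-sensitive channel of vessels, was at 0.582, 0, 14.8 and 0 CPM against 4.67 to 8.14 CPM and not called (FDR = 0.787), and was called lower without arteriole 98 (log2 fold change -5.09, FDR 0.0083).

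Among the lower potassium channels were those of the nephron. Kcnj1, the ROMK channel of potassium secretion, was at 0.582, 0.732, 0.345 and 4.82 CPM in arterioles and 77.7, 76.3, 64.3 and 58.9 CPM in whole kidney (FDR = 0.00588). Kcnj10, the basolateral Kir4.1 channel of the distal nephron, and Kcnk5, the TASK-2 channel of the proximal tubule, were lower as well (log2 fold change -6.15 and -4.50). Kcna5, Kcnj1, Kcnj10 and Kcnk5 were picked for mention after their values were seen. Kcnab2 and Kcnt1 had 0 counts in every arteriole library, at least 21.7-fold and 20.7-fold lower at the 3-count floor, and Kcng1 had 1 count.

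Of the chloride, TRP, Piezo and other cation channel list of 91 genes, 44 passed the low-count filter, 5 were higher (8 without arteriole 96 or 98) and 13 lower (20 to 21 without arteriole 98 or 100), with a median log2 fold change of 0.33 (of the opposite sign in 5 of 7 other fits, reaching -2.78). P2rx1, the ATP-gated channel through which nerves and the macula densa constrict the preglomerular vessels, was at 133, 379, 219 and 87.3 CPM against 1.94, 3.15, 1.99 and 2.08 CPM (log2 fold change 6.48 ± 0.74, FDR = 0.000386). Every arteriole library lay far above whole kidney. Piezo1, a stretch-gated channel, was at 111, 0.879, 139 and 176 CPM against 33.4 to 42.4 CPM, high in 3 arteriole libraries and near 0 in arteriole 96, and was not called (FDR = 0.351). It was called higher without arteriole 96 (log2 fold change 1.93, FDR 0.00447). Ano1, the calcium-activated chloride channel described in arterial muscle, was lower here, at 0, 0.146, 0.689 and 0 CPM against 8.16, 3.91, 8.07 and 9.86 CPM (FDR = 0.0111), on 7 counts in arterioles. The epithelial calcium channel Trpv5 had 5 counts, Trpm3 had 1 and the sodium channel subunit Scn2b had 0 (FDR = 0.000743, 0.00124 and 0.000656). Trpc6, a receptor-operated channel, was not tested, at 18.4, 0, 60.0 and 0.179 CPM in arterioles against 0.0662 to 0.362 CPM.

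Receptors for vasoactive ligands varied widely between arteriole libraries. Among the receptor genes tested 19.0% were higher and 19.0% lower, against 8.82% and 19.0% of all genes tested. Of the list of 64 genes, 42 passed the low-count filter, 8 were higher and 8 lower, with a median log2 fold change of 1.63 (of the opposite sign in 2 of 7 other fits, reaching -1.74). Ramp1, the partner that turns the calcitonin-like receptor into the receptor for CGRP, was at 239, 310.3, 48.7 and 162 CPM against 0.583 to 1.30 CPM (log2 fold change 7.65 ± 0.86, FDR = 0.000367), while the receptor gene Calcrl itself, at 51.6, 0.586, 14.01 and 41.2 CPM against 7.602 to 11.4 CPM, was not called (FDR = 0.483). Olfr558, an olfactory receptor of smooth muscle, was higher with little spread, at 254, 147, 150.2 and 205 CPM against 0.583 to 1.99 CPM. The endothelin receptor gene Ednra was at 169.5, 79.2, 11.8 and 23.04 CPM against 0.652 to 2.35 CPM (log2 fold change 5.39 ± 1.23, FDR = 0.00631), above whole kidney in each library. Ednrb, the other endothelin receptor, had 1.36, 0.439, 90.9 and 107 CPM against 9.96 to 14.4 CPM and was not called (FDR = 0.363).

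The angiotensin receptor gene Agtr1a shows how single libraries set these values. It was at 10.1, 453, 0.345 and 0.893 CPM in arterioles and 21.8, 14.1, 24.8 and 23.4 CPM in whole kidney, that is, far above whole kidney in arteriole 96 and below it in the other three (log2 fold change 2.47 ± 1.72, FDR = 0.359). The adrenergic receptor gene Adra1a, at 0.293 to 22.3 CPM against 3.01 to 8.21 CPM, was not called either (FDR = 0.915). Ptgir, the prostacyclin receptor, had counts in arteriole 100 alone, at 0, 0, 0 and 53.6 CPM, and was called lower without arteriole 100 (log2 fold change -6.39, FDR 0.00811). P2ry6, a receptor for UDP, was lower on 4 counts in arterioles, and Aplnr had 0 counts, at least 28.1-fold lower at the 3-count floor.

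Regulators of G proteins act downstream of these receptors. Of the list of G proteins, RGS proteins and phospholipase C of 45 genes, 33 passed the low-count filter, 9 were higher and 3 lower (5 to 6 without arteriole 96 or 98), with a median log2 fold change of 1.5. Rgs5, a regulator that switches G proteins off and marks mural cells (chr1:169655501-169695813, plus strand), was at 5483, 5940, 3898 and 3958 CPM against 39.9, 34.8, 41.2 and 50.9 CPM (log2 fold change 6.86 ± 0.26, FDR = 1.05e-06). Rgs7bp, which anchors RGS proteins of the R7 class at the membrane, was at 495, 451, 339 and 688 CPM against 3.89 to 6.52 CPM (log2 fold change 6.57 ± 0.46, FDR = 2.36e-05). Rgs4 and Rgs2 were higher by 4.10 and 2.87, and the inhibitory G protein gene Gnai2 by 2.19 on the log2 scale, at 890.2 to 1447 CPM against 207 to 275 CPM. The lower members included Plcd4, on 1 count, and the protein kinase C gene Prkcb, on 6 counts.

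Nitric oxide from the endothelium relaxes muscle through soluble guanylyl cyclase, cyclic GMP and its kinase. Of the nitric oxide, cyclic nucleotide and prostanoid list of 55 genes, 48 passed the low-count filter, 14 were higher and 11 lower, with a median log2 fold change of 0.70 (of the opposite sign in 2 of 7 other fits, reaching -1.59). Nos3, the endothelial synthase (chr5:24364810-24384474, plus strand), was at 479, 420.2, 449.8 and 428 CPM and 4.37, 5.33, 5.63 and 7.87 CPM (log2 fold change 6.26 ± 0.43, FDR = 2.21e-05), among the most even values between arterioles. The cyclase subunit gene Gucy1a1 was higher, at 149, 149.8, 189 and 91.1 CPM against 20 to 33.3 CPM (log2 fold change 2.41 ± 0.56, FDR = 0.00723), whereas its partner Gucy1b1, at 0.97, 23.9, 1.38 and 0.536 CPM against 3.37 to 7.68 CPM, was above whole kidney only in arteriole 96 and was not called (FDR = 0.836). Gucy1b1 was called lower without arteriole 96 (log2 fold change -2.33, FDR 0.0237). Both kinase genes, Prkg1 and Prkg2, were higher (log2 fold change 5.13 and 7.47). Whole kidney libraries ranged between 2.06 and 3.01 CPM for Prkg1 and between 0.972 and 2.17 CPM for Prkg2. Pde3a, a phosphodiesterase that cyclic GMP inhibits, was at 136 to 372 CPM against 5.43 to 10.2 CPM, while Pde5a, which degrades cyclic GMP, was read above 1 CPM in arteriole 98 alone, at 0.97, 0, 23.2 and 0 CPM, and was called lower without arteriole 98 (log2 fold change -3.73, FDR 0.0278). Ptgis, the prostacyclin synthase, was at 683, 1129, 488 and 333 CPM against 4.18 to 7.42 CPM (log2 fold change 6.74 ± 0.53, FDR = 4.33e-05), and Adcy5, an adenylyl cyclase, at 347, 143, 383 and 438 CPM against 3.38 to 5.44 CPM (log2 fold change 6.31 ± 0.58, FDR = 0.0001). Ptgds, a prostaglandin D synthase, had 0 counts in arterioles and Arg2, the mitochondrial arginase, had 1 (FDR = 0.00108 and 0.00105).

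Of the renin-angiotensin and endothelin list of 14 genes, 12 passed the low-count filter, 2 were higher and 3 lower (5 without arteriole 96), with a median log2 fold change of -0.78. The endothelin ligand gene Edn1 and its processing enzyme gene Ece1 were higher: Edn1 was at 90.8, 233, 91.5 and 1.61 CPM against 1.46 to 3.51 CPM and Ece1 at 191, 711, 228 and 246 CPM against 36.5 to 49.0 CPM. Arteriole 100 lay within the whole kidney range for Edn1, and no library did for Ece1. Edn3, another endothelin, was lower on 1 count. Agt, which encodes angiotensinogen, the substrate of renin, was another lower member and lay below whole kidney in all 4 libraries. Ace, the converting enzyme of endothelium and proximal brush border, was at 0.582, 162, 160.4 and 144 CPM against 30.6 to 43.9 CPM, high in 3 libraries and near 0 in arteriole 93, and was called higher without arteriole 93 (log2 fold change 2.03, FDR 0.00545).

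**Figure D3:**
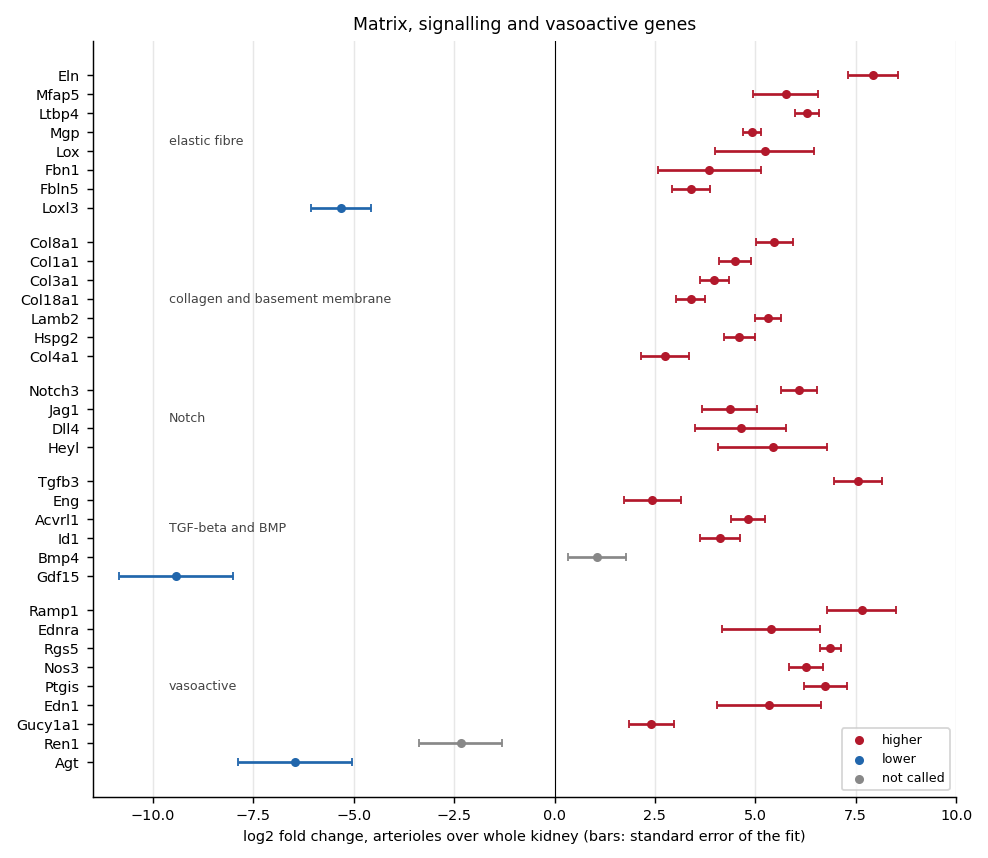
Log2 fold change of matrix, Notch, TGF-beta and vasoactive genes, arterioles over whole kidney (horizontal axis; points are fitted values and bars their standard error, from 4 and 4 libraries; red higher, blue lower, gray not called). Eln had a log2 fold change of 7.93 and Tgfb3 of 7.55, while Bmp4 and Ren1 were not called; fitted values of Loxl3, Gdf15 and Agt rest on few or no counts in arterioles.

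Most elastic fibre genes of the vessel wall were higher. Of the elastic fibre list of 24 genes, 19 passed the low-count filter, 15 were higher and 1 lower (2 to 3 without arteriole 93, 96, 98 or 100 or whole kidney 96), with a median log2 fold change of 3.99. Elastin (Eln; chr5:134702593-134747323, minus strand) was at 3688, 5892, 858 and 1948 CPM in arterioles and 13.7, 12.4, 11.4 and 13.6 CPM in whole kidney (log2 fold change 7.93 ± 0.63, FDR = 4.33e-05). Arterioles 93 and 96 had the higher values, and the lowest arteriole library was still far above whole kidney. Ltbp4, a latent TGF-beta binding protein of elastic fibres, was at 1930, 3158, 1776 and 1674 CPM against 26.1 to 28.9 CPM (log2 fold change 6.28 ± 0.31, FDR = 2.13e-06), and Mgp, matrix Gla protein, an inhibitor of calcification, at 5912, 10180, 6700 and 6759 CPM against 218 to 299.5 CPM (log2 fold change 4.92 ± 0.23, FDR = 2.09e-06). The assembly genes Mfap5, Lox and Fbln5 were higher by 5.75, 5.23 and 3.40, and so was Mmrn2, an endothelial matrix glycoprotein, by 4.32. Fibrillin 1 (Fbn1) was called at a margin, with arteriole 96 near 0 (143, 0.439, 152 and 92.0 CPM against 5.25 to 7.72 CPM), and was not called without arteriole 93, 98 or 100 or whole kidney 93, 96, 98 or 100 (log2 fold change 3.57 to 3.92, FDR 0.0551 to 0.127). Loxl3, an oxidase like Lox, was lower on 1 count in arterioles.

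Of the collagens outside type IV, a list of 38 genes, 21 passed the low-count filter, 12 were higher and 4 lower, with a median log2 fold change of 3.05. Col1a1 and Col3a1, the fibrillar collagens of the adventitia, were at 744, 1599, 583 and 757 CPM and 488, 573, 458 and 559 CPM, against 39.7 to 44.5 CPM and 25.8 to 43.2 CPM. Col8a1, a short-chain collagen of the vessel wall, was at 346, 468, 356 and 362 CPM against 5.73 to 10.9 CPM (log2 fold change 5.47 ± 0.46, FDR = 5.76e-05), and Col18a1, the source of endostatin, had a log2 fold change of 3.39. No arteriole library fell into the whole kidney range for these 4 genes. Col5a3 and Col26a1 had 0 counts in arterioles, at least 20.3-fold and 17.1-fold lower at the 3-count floor.

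Of the basement membrane list of 25 genes, 23 passed the low-count filter, 8 were higher and 2 lower (4 to 7 without arteriole 93, 98 or 100), with a median log2 fold change of 1.42 (of the opposite sign in 2 of 7 other fits, reaching -1.30). The laminin chain gene Lamb2 was at 1466, 1852, 924 and 1087 CPM against 31.2 to 37.5 CPM (log2 fold change 5.31 ± 0.33, FDR = 1.11e-05) and perlecan (Hspg2) at 667, 1375, 685 and 732 CPM against 28.9 to 46.9 CPM (log2 fold change 4.60 ± 0.39, FDR = 5.76e-05). Lama5, Sparc and the type IV collagen genes Col4a1 and Col4a2 were higher by 4.24, 3.42, 2.75 and 3.67. Col4a1 was at 1261, 2219, 374 and 301 CPM against 146 to 164 CPM, with arterioles 93 and 96 high and 98 and 100 closer to whole kidney. The laminin chain Lama1 was lower, with 8 counts in arterioles.

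Of the proteoglycan and matricellular list of 55 genes, 34 passed the low-count filter, 11 were higher and 1 lower (2 to 4 without arteriole 93, 96, 98 or 100 or whole kidney 93 or 96), with a median log2 fold change of 2.40. Optc, opticin, a small leucine-rich proteoglycan, was at 341, 462, 193 and 174 CPM against 0.326 to 1.75 CPM (log2 fold change 7.93 ± 0.77, FDR = 0.00014), Sparcl1 at 2001 to 6876 CPM against 51.9 to 102 CPM, and Fmod, fibromodulin, at 266 to 707 CPM against 6.79 to 10.2 CPM. The abundant proteoglycan genes Bgn and Dcn were higher by 4.45 and 3.65. Fibronectin (Fn1) was at 547, 993, 217 and 28.4 CPM against 12.04 to 19.8 CPM, with arteriole 100 close to whole kidney (log2 fold change 4.89 ± 0.92, FDR = 0.00233). Ccn2, a target gene of YAP and SRF, was at 21.7, 363, 89.2 and 129.8 CPM against 20.97 to 48.8 CPM and not called (FDR = 0.0916), and was called higher without arteriole 93 (log2 fold change 2.43, FDR 0.0127). Tnn, a tenascin, was lower on 1 count.

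Of the matrix protease and inhibitor list of 62 genes, 35 passed the low-count filter, 17 were higher and 2 lower (1 without whole kidney 98 and 4 to 8 without arteriole 93, 96, 98 or 100 or whole kidney 96), with a median log2 fold change of 2.80. Among the inhibitors, Timp2 was at 2315, 1846, 1420 and 1660 CPM against 100 to 112 CPM (log2 fold change 4.13 ± 0.25, FDR = 1.02e-05), Serpine2, protease nexin 1, at 265, 324, 308 and 190 CPM against 14.1 to 25.9 CPM, and Timp3 at 2550 to 4519 CPM against 1128 to 1393 CPM (log2 fold change 1.31). Timp3 thus was abundant in both groups and differed least of these inhibitors. Adamts2, which trims procollagen, was at 287, 139, 162 and 138 CPM against 3.48 to 4.57 CPM. Mmp13, a collagenase, was lower on 2 counts, and Adamts4 was lower (log2 fold change -2.17) but was not called without whole kidney 96, 98 or 100 (log2 fold change -2.23 to -1.99, FDR 0.0541 to 0.0634).

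Of the integrins, a list of 30 genes, 21 passed the low-count filter, 8 were higher and 3 lower (5 to 8 without arteriole 96, 98 or 100), with a median log2 fold change of 1.71 (of the opposite sign in 2 of 7 other fits, reaching -0.73). Itga8, the integrin of mesangial and smooth muscle cells, was at 33.2, 777, 140.5 and 46.2 CPM against 5.54 to 8.54 CPM, Itga7 at 408, 86.0, 224 and 71.2 CPM against 4.67 to 5.97 CPM and the shared chain Itgb1 at 1150, 1555, 760.5 and 621 CPM against 119 to 161 CPM. All 4 arteriole libraries were above whole kidney for each, with arteriole 96 standing high for Itga8. Itga9 was higher by 4.04. The leukocyte integrins Itgal and Itgax were lower, on 0 and 2 counts in arterioles, and Itgal did not pass the filter without whole kidney 100. Itga5, the fibronectin receptor chain, was not tested, at 0.776, 0, 0 and 109.6 CPM in arterioles and 0.272 to 2.12 CPM in whole kidney.

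Signalling between endothelium and muscle was represented first by Notch, in which ligands on 1 cell activate receptors on the next. Of the Notch list of 26 genes, 20 passed the low-count filter, 9 were higher and 0 lower by edgeR (2 at an unadjusted p, 2 by DESeq2, 0 by limma, 1 to 3 without arteriole 93, 96, 98 or 100 or whole kidney 100), with a median log2 fold change of 2.51. The ligand genes Jag1, Jag2 and Dll4 were higher: Jag1 was at 134, 76.0, 222 and 432 CPM against 7.39 to 13.7 CPM, and Jag2 and Dll4 had log2 fold changes of 6.01 and 4.63. The mural receptor gene Notch3 was at 719, 644, 424 and 352 CPM against 6.61, 8.04, 7.15 and 9.77 CPM (log2 fold change 6.09 ± 0.44, FDR = 3.31e-05), with little spread. Of the target genes, Hey2 was at 24.6, 120.1, 109 and 40.5 CPM against 0.272 to 0.978 CPM, and Heyl at 298, 0.732, 99.6 and 115 CPM against 2.52 to 3.50 CPM (FDR = 0.0107), with arteriole 96 below the whole kidney range. Hey1 was not tested, at 4.27, 0, 79.1 and 81.4 CPM in arterioles.

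Of the TGF-beta and BMP list of 52 genes, 42 passed the low-count filter, 11 were higher and 5 lower (8 to 9 without arteriole 98 or 100), with a median log2 fold change of 2.18. The ligand gene Tgfb3 was at 629.7, 659.9, 251 and 309 CPM against 3.01, 1.52, 3.24 and 2.08 CPM (log2 fold change 7.55 ± 0.59, FDR = 4.33e-05), and the endothelial receptor gene Acvrl1, for ALK1, at 448, 302, 569 and 341 CPM against 13.9 to 16.8 CPM (log2 fold change 4.81 ± 0.42, FDR = 7.94e-05). Its co-receptor endoglin (Eng) was called at 260.1, 96.3, 34.4 and 141 CPM against 24.1 to 25.1 CPM but was not called without whole kidney 93, 96, 98 or 100 (log2 fold change 2.42 to 2.43, FDR 0.0809 to 0.0861). The target genes Id1 and Id3 were higher by 4.12 and 4.01. Id3 was at 416, 1583, 1090 and 1927 CPM against 65.6 to 106 CPM. The inhibitory Smad genes Smad6 and Smad7 and the ligand gene Bmp4 were not called (FDR = 0.201, 0.177 and 0.349). Smad6 was called higher without arteriole 96 (log2 fold change 2.79, FDR 0.0319), and Smad7 was called higher without arteriole 93 (log2 fold change 3.21, FDR 0.0325). Gdf15, a stress cytokine of this family, had 0 counts in arterioles, at least 83.3-fold lower, and the receptor gene Bmpr1b had 1 count.

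Of the Wnt genes tested, 12.1% were higher and 24.2% lower, against 8.82% and 19.0% of all genes tested. Of the Wnt list of 60 genes, 33 passed the low-count filter, 4 were higher (2 without whole kidney 93, 96, 98 or 100) and 8 lower, with a median log2 fold change of 1.43 (of the opposite sign in 3 of 7 other fits, reaching -0.80). Nkd1, an inhibitor that Wnt itself induces, was at 75.7, 847, 58.9 and 157 CPM against 2.83 to 4.47 CPM (log2 fold change 6.23 ± 1.01, FDR = 0.00117). The ligand gene Wnt5b and the secreted antagonist Notum were lower on 2 and 2 counts in arterioles, and the ubiquitin ligase gene Rnf43 had 0 counts (FDR = 0.00133).

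Of the VEGF, angiopoietin, PDGF and FGF list of 52 genes, 43 passed the low-count filter, 10 were higher (4 to 5 without whole kidney 93, 96, 98 or 100) and 3 lower (7 without arteriole 96, 98 or 100), with a median log2 fold change of 1.30 (of the opposite sign in 2 of 7 other fits, reaching -1.49). Pdgfa, a PDGF ligand, was at 213, 392, 541 and 457 CPM against 32.4 to 43.5 CPM (log2 fold change 3.33 ± 0.42, FDR = 0.000632) and the endothelial receptor gene Tie1 at 105, 511, 133 and 403 CPM against 15.8 to 23.9 CPM (log2 fold change 3.89 ± 0.64, FDR = 0.00126). No arteriole library fell into the whole kidney range for either. The receptor genes Tek, Pdgfrb and Flt1 were called with log2 fold changes of 2.77, 2.04 and 1.60. However, Tek was not called without whole kidney 93, 96, 98 or 100 (log2 fold change 2.67 to 2.85, FDR 0.0802 to 0.0994), Pdgfrb was not called without arteriole 93 or whole kidney 93, 96, 98 or 100 (log2 fold change 1.62 to 2.11, FDR 0.0611 to 0.17), and Flt1 was not called without whole kidney 93 or 98 (log2 fold change 1.49 to 1.58, FDR 0.0515 to 0.0522). The VEGF receptor gene Kdr and Vegfa itself were not called, Kdr at 71.0, 5.27, 147.8 and 5.54 CPM against 95.5 to 156 CPM and Vegfa at 115, 1.32, 8.50 and 44.6 CPM against 36.2 to 54.7 CPM (FDR = 0.462 and 0.942). Angpt2, a ligand of Tek, was read in arteriole 96 at a level far above the others (0.388, 214, 0.115 and 0 CPM) and was called lower without arteriole 96 (log2 fold change -5.82, FDR 0.00568). Pdgfb and Pdgfra were not called (FDR = 0.166 and 0.748), and Pdgfb was called higher without arteriole 100 (log2 fold change 2.81, FDR 0.0355). Gfra1 had 0 counts in arterioles and Nrg1 had 1.

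Of the insulin-like growth factor list of 18 genes, 15 passed the low-count filter, 0 were higher by edgeR (1 at an unadjusted p, 2 by DESeq2, 0 by limma, 1 without arteriole 93 or 98) and 2 lower (4 to 5 without arteriole 96 or 98), with a median log2 fold change of 0.83 (of the opposite sign in 2 of 7 other fits, reaching -1.65). Igfbp4 was abundant in both, at 435, 1114, 1028 and 804 CPM against 407 to 603 CPM, and not called (FDR = 0.0883), although it was called higher without arteriole 93 (log2 fold change 1.06, FDR 0.00606). Igf1 and Igfbp5 were not called either (FDR = 0.733 and 0.526), and Igfbp5 was called lower without arteriole 96 (log2 fold change -2.28, FDR 0.00272). Igfbp6 and Stc1 were lower on 2 and 8 counts in arterioles.

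Of the axon guidance list, whose ligands also steer vessels, of 69 genes, 46 passed the low-count filter, 8 were higher (4 to 5 without whole kidney 93, 96, 98 or 100) and 9 lower, with a median log2 fold change of 0.98 (of the opposite sign in 2 of 7 other fits, reaching -1.07). Sema3g, a semaphorin of arterial endothelium, was at 428, 1019, 944 and 666 CPM against 18.01 to 21.2 CPM (log2 fold change 5.29 ± 0.40, FDR = 3.81e-05). Efnb2, the arterial ephrin, was at 27.7, 267, 41.8 and 107 CPM against 4.28 to 5.97 CPM (log2 fold change 4.49 ± 0.95, FDR = 0.00435), while its venous receptor gene Ephb4, at 0.194, 141, 0.115 and 8.93 CPM against 4.10 to 9.33 CPM, was above whole kidney in arteriole 96 and close to it in arteriole 100 and was not called (FDR = 0.358). Unc5b, a netrin receptor of arterial tip cells, was higher by 3.33. Slit3 was called on arterioles 96 and 100 (0.388, 59.0, 1.26 and 179 CPM against 0.583 to 1.81 CPM) and was not called without arteriole 96 or 100 or whole kidney 93, 96, 98 or 100 (log2 fold change 4.07 to 5.87, FDR 0.0531 to 0.12). Plxnd1, a semaphorin receptor, was not called (FDR = 0.274) and was called higher without arteriole 100 (log2 fold change 2.53, FDR 0.0369). Robo3 had 0 counts in arterioles, at least 42.4-fold lower, and Efna4 and Ephb2 had 1 each. Among the axon guidance genes tested 17.4% were higher and 19.6% lower, against 8.82% and 19.0% of all genes tested.

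Of the chemokine list of 54 genes, 15 passed the low-count filter, 1 were higher (2 without arteriole 93 or 96) and 2 lower (4 to 8 without arteriole 93, 96, 98 or 100 or whole kidney 98), with a median log2 fold change of 0.72 (of the opposite sign in 5 of 7 other fits, reaching -2.46). Cx3cl1, fractalkine, a membrane-bound chemokine of endothelium, was at 307, 577, 291 and 311 CPM against 46.1 to 67.3 CPM (log2 fold change 2.76 ± 0.41, FDR = 0.000908). Cxcl12 was at 158, 33.7, 228 and 261 CPM against 90.0 to 118 CPM and not called (FDR = 0.444), and was called higher without arteriole 96 (log2 fold change 1.03, FDR 0.0298). Ackr1, a marker of venular endothelium, had 0 counts in arterioles and 2 in whole kidney. Cxcl9 was lower on 2 counts. Among the chemokine list's tested members 6.67% were higher and 13.3% lower, against 8.82% and 19.0% of all genes tested.

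Cells of the arteriolar wall pass current through gap junctions. Of the connexin list of 21 genes, 5 passed the low-count filter, 2 were higher (1 without whole kidney 93, 96, 98 or 100) and 1 lower (2 to 3 without arteriole 93, 96, 98 or 100 or whole kidney 93 or 96), with a median log2 fold change of 1.81 (of the opposite sign in 5 of 7 other fits, reaching -3.29). Gja4, connexin 37, was at 573, 1175, 582 and 792 CPM against 5.44, 7.28, 7.81 and 9.68 CPM (log2 fold change 6.70 ± 0.44, FDR = 1.75e-05), while Gja5, connexin 40 of arterial endothelium and renin cells, did not pass the filter, at 0, 2.34, 0.115 and 6.79 CPM in arterioles and 0.0662 to 0.389 CPM in whole kidney. Gjc1, connexin 45, was called (log2 fold change 4.02) but was not called without whole kidney 93, 96, 98 or 100 (log2 fold change 3.84 to 4.15, FDR 0.0659 to 0.0789). Gja1, connexin 43, was read mainly in arteriole 93, at 52.8, 0, 0.804 and 0 CPM, and was called lower without arteriole 93 (log2 fold change -3.62, FDR 0.032). The epithelial connexin gene Gjb2 was lower, at 0.357 to 0.732 CPM against 32.3 to 49.95 CPM (FDR = 0.0026).

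Caveolae are membrane pits abundant in muscle and endothelium. Of their list of 14 genes, 12 passed the low-count filter, 6 were higher and 0 lower by edgeR (0 at an unadjusted p, 0 by DESeq2, 0 by limma), with a median log2 fold change of 2.71. Cavin1, their coat protein, was at 1379, 1057, 599 and 1059 CPM against 39.8 to 67.7 CPM (log2 fold change 4.31 ± 0.36, FDR = 6.15e-05), Cav1 at 231, 192, 128 and 53.8 CPM against 10.2 to 21.99 CPM (log2 fold change 3.22 ± 0.68, FDR = 0.00413), and Cavin3, Ehd2 and Ehd4 were higher by 5.05, 5.28 and 3.74. The groups did not overlap for Cavin1 and Cav1.

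Of the endothelial junction and surface list of 33 genes, 31 passed the low-count filter, 14 were higher and 3 lower (5 without arteriole 98), with a median log2 fold change of 2.55. Cldn5, the claudin of endothelial tight junctions, was at 153, 348, 606 and 431 CPM against 2.14 to 2.90 CPM (log2 fold change 7.22 ± 0.60, FDR = 5.76e-05). Pecam1 was at 2475, 2319, 840 and 552 CPM against 53.1 to 72.9 CPM and Cdh5, VE-cadherin, at 41.3, 195, 66.8 and 232 CPM against 7.06 to 14.97 CPM. Arterioles 93 and 96 had the more Pecam1 and arterioles 96 and 100 the more Cdh5, and all were above whole kidney. Cd93, Ptprb and Egfl7 were higher by 4.39, 4.36 and 4.25. Ocln and Cdh2, junction genes that tubules use, were lower on 7 and 1 counts in arterioles.

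Of the hemostasis list of 29 genes, 23 passed the low-count filter, 8 were higher and 3 lower (5 to 7 without arteriole 93, 96, 98 or 100 or whole kidney 96), with a median log2 fold change of 2.21. Vwf, von Willebrand factor, was at 437, 942, 209 and 159 CPM against 1.36, 2.06, 1.99 and 3.80 CPM (log2 fold change 7.57 ± 0.79, FDR = 0.000226), and Tgm2, transglutaminase 2, at 2328, 2894, 1235 and 1250 CPM against 176 to 194 CPM (log2 fold change 3.40 ± 0.33, FDR = 0.00014). F5 and Tfpi2 were lower on 7 and 3 counts.

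Transcription factors hold the identity of muscle and endothelium. Of the vascular list of 99 genes, 73 passed the low-count filter, 21 were higher and 6 lower (10 without arteriole 93), with a median log2 fold change of 2.23. Myocd, myocardin, the SRF coactivator of the contractile program (chr11:65176561-65269989, minus strand), was at 63.2, 13.5, 26.4 and 114 CPM in arterioles and 0.194, 0.435, 0.86 and 0.543 CPM in whole kidney (log2 fold change 6.70 ± 1.30, FDR = 0.00272). It was low in absolute level and still above whole kidney in all 4 libraries. Srf itself did not pass the filter, at 0, 14.8, 0 and 23.04 CPM against 0.217 to 3.11 CPM, and the related coactivators Mrtfa and Mrtfb were not called, Mrtfa at 0.194, 148, 54.9 and 0 CPM against 4.17 to 6.61 CPM and Mrtfb at 34.0, 1.32, 154 and 18.04 CPM against 12.3 to 19.1 CPM (FDR = 0.256 and 0.347). Mef2c, another factor of muscle genes, was at 352, 586, 403 and 383 CPM against 18.9 to 32.6 CPM (log2 fold change 4.00 ± 0.41, FDR = 0.000188), and Gata6 and Ebf1, both known in mural cells, were higher by 4.76 and 3.83.

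Zfhx3, at 501, 1471, 530 and 700.4 CPM against 23.8 to 33.0 CPM, and Nfix, at 343, 612, 437 and 497 CPM against 38.7 to 59.9 CPM, were called as well (FDR = 0.000129 and 0.000429). In the endothelial set, Epas1, which encodes HIF-2 alpha, was at 851, 2507, 1479 and 1257 CPM against 66.4 to 88.9 CPM (log2 fold change 4.25 ± 0.37, FDR = 7.94e-05), and Sox17, which acts in arterial fate, at 227, 308, 214 and 105 CPM against 5.82 to 8.15 CPM (log2 fold change 4.88 ± 0.59, FDR = 0.00054). Neither overlapped with whole kidney. Erg was at 106, 234, 14.4 and 0.714 CPM against 3.79 to 7.48 CPM, above whole kidney in 3 libraries and below it in arteriole 100, and not called (FDR = 0.0585); it was called higher without arteriole 98 or 100 (log2 fold change 4.39 to 4.45, FDR 0.00593 to 0.0368). Nr2f2, the venous factor COUP-TFII, was at 494, 307, 128 and 305 CPM against 112 to 179 CPM and not called (FDR = 0.139), and was called higher without arteriole 98 (log2 fold change 1.26, FDR 0.0176). Sox18 was not tested, at 0 to 3.75 CPM against 0 to 2.82 CPM. The stromal progenitor factors Foxd1 and Tbx18 and the factor Meox2 had 93, 1 and 0 counts in arterioles and were not tested. Snai1 had 0 counts in arterioles against 1.18 to 2.91 CPM (FDR = 0.000815).

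**Figure D4:**
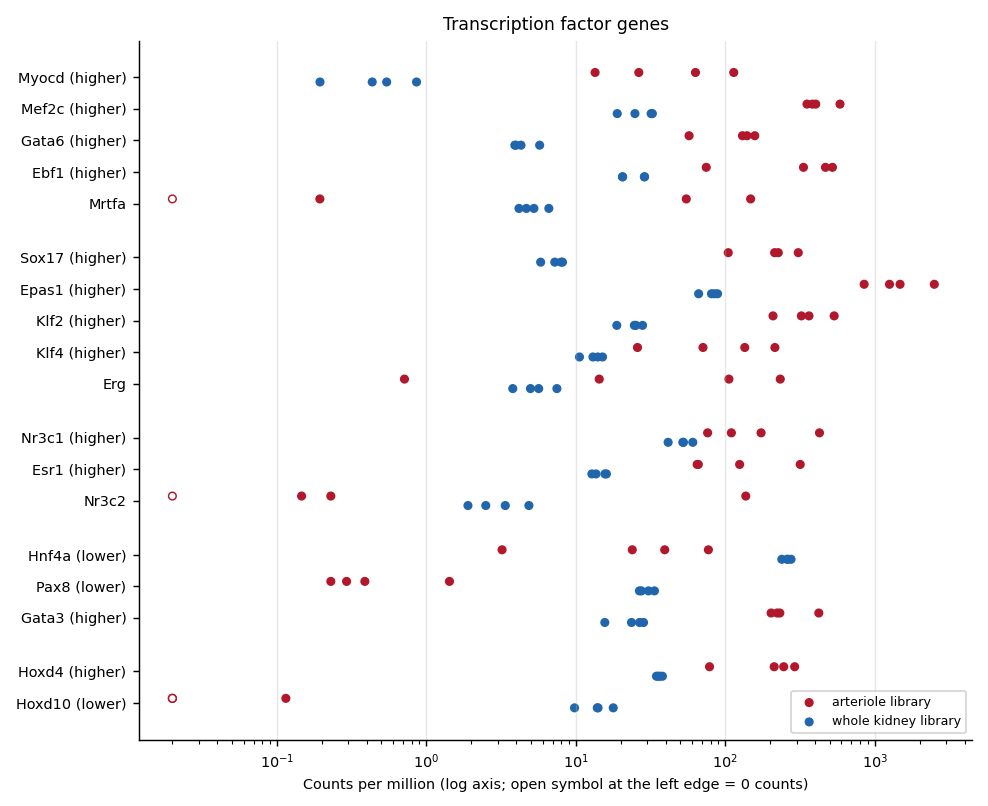
CPM of transcription factor genes (horizontal log axis; an open symbol at the left edge marks 0 counts), 1 point per library, red for arterioles and blue for whole kidney, with the call beside the name. Myocd, Mef2c, Sox17, Epas1 and Klf2 lay above whole kidney in all 4 arteriole libraries, Pax8 and Hnf4a below it, and Erg and Nr3c2 had arteriole libraries on both sides.

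Factors of kidney epithelium were mostly lower or uncalled. Of a list of 45 genes, 38 passed the low-count filter, 2 were higher and 14 lower, with a median log2 fold change of -1.80. Pax8, a factor of nephron identity, was at 0.388, 0.293, 0.23 and 1.43 CPM against 33.6, 27.5, 26.7 and 30.7 CPM (log2 fold change -5.63 ± 1.28, FDR = 0.00638), and Hnf4a, of the proximal tubule, at 39.4, 77.2, 23.9 and 3.21 CPM against 239, 259.5, 276 and 263 CPM (log2 fold change -2.84 ± 0.78, FDR = 0.018). Both were below whole kidney in all arteriole libraries. Tfap2b, a factor of the distal nephron, had 1 high arteriole library and was not called (FDR = 0.276), although it was called lower without arteriole 100 (log2 fold change -7.81, FDR 0.00202). Emx2 was not called (FDR = 0.997). Grhl2, Sim1 and Nr0b2 were lower on 1, 2 and 0 counts in arterioles. Gata3, a factor of collecting duct and also of mesangial cells, went the other way, at 223, 423, 232 and 203 CPM against 15.7 to 28.4 CPM (log2 fold change 3.52 ± 0.49, FDR = 0.000788), and so did Skil (log2 fold change 3.41), an inhibitor of Smad signalling.

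Of the Kruppel-like and SP factors, a list of 26 genes, 19 passed the low-count filter, 6 were higher and 2 lower (6 without arteriole 98), with a median log2 fold change of 0.58 (of the opposite sign in 2 of 7 other fits, reaching -1.09). Klf2, which endothelium expresses under flow, was at 323, 364, 536 and 209 CPM against 18.8 to 28.0 CPM (log2 fold change 3.90 ± 0.46, FDR = 0.00049). Klf4, its relative, was at 135, 71.0, 215 and 25.9 CPM against 10.6 to 15.1 CPM and called at FDR = 0.0142, but it was not called without whole kidney 93, 96, 98 or 100 (log2 fold change 3.00 to 3.15, FDR 0.0502 to 0.0572). Klf7 was higher by 2.86. Klf15, a factor of glucocorticoid response, was not called (FDR = 0.902). Klf1, of the erythroid lineage, had 0 counts in arterioles, where hemoglobin mRNA was higher, and Klf11 had 1.

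Of the nuclear receptors, a list of 31 genes, 23 passed the low-count filter, 3 were higher (1 without whole kidney 93, 96, 98 or 100 and 5 to 6 without arteriole 93, 96 or 98) and 2 lower (4 to 6 without arteriole 93, 96, 98 or 100), with a median log2 fold change of 1.34 (of the opposite sign in 2 of 7 other fits, reaching -0.70). Esr1, an estrogen receptor, was at 125, 318, 64.9 and 66.1 CPM against 12.8 to 16.03 CPM (log2 fold change 3.31 ± 0.73, FDR = 0.00551). The glucocorticoid receptor gene Nr3c1 and the thyroid hormone receptor gene Thra were called (log2 fold change 1.94 and 1.74), but Nr3c1 was not called without arteriole 96 or whole kidney 93, 96, 98 or 100 (log2 fold change 1.21 to 2.01, FDR 0.0696 to 0.118) and Thra was not called without whole kidney 93, 96, 98 or 100 (log2 fold change 1.65 to 1.77, FDR 0.0607 to 0.0729). The mineralocorticoid receptor gene Nr3c2 was read mainly in arteriole 93, at 137, 0.146, 0.23 and 0 CPM, and was called lower without arteriole 93 (log2 fold change -4.39, FDR 0.00274). Nr6a1 was lower on 6 counts.

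Hox genes record position along the body axis. Among those tested 7.41% were higher and 11.1% lower, against 8.82% and 19.0% of all genes tested. Of 37 genes, 27 passed the low-count filter, 2 were higher and 3 lower (5 to 9 without arteriole 93, 96, 98 or 100), with a median log2 fold change of 0.71 (of the opposite sign in 2 of 7 other fits, reaching -1.66). Hoxd4 was at 78.6, 292, 246 and 213 CPM against 34.7 to 38.0 CPM (log2 fold change 2.52 ± 0.54, FDR = 0.0043), whereas Hoxd10 and Hoxd9, further along the same cluster, were at 0 to 0.115 CPM and 0.179 to 1.15 CPM against 9.81 to 17.8 CPM and 20.8 to 35.9 CPM (FDR = 0.00185 and 0.00639). Hoxd4 was above whole kidney and Hoxd9 and Hoxd10 below it in all 4 libraries. Hoxa4 was lower on 1 count. Of the circadian clock list of 17 genes, 15 passed the low-count filter, 0 were higher by edgeR (0 at an unadjusted p, 0 by DESeq2, 0 by limma) and 2 lower (7 without arteriole 98), with a median log2 fold change of -0.44. The 2 lower members were 13.3% of the clock genes tested, against 19.0% of all genes tested. They were the repressors Cry1 and Cry2 (FDR = 0.00128 and 0.00594), on 3 and 7 counts in arterioles. Arntl, Clock, Per1, Per2 and Dbp were not called (FDR 0.986, 0.886, 0.425, 0.823 and 0.473). Arntl was called lower without arteriole 98 (log2 fold change -4.90, FDR 0.00214), and Per2 was called lower without arteriole 98 (log2 fold change -8.92, FDR 0.00267).

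**Figure D5:**
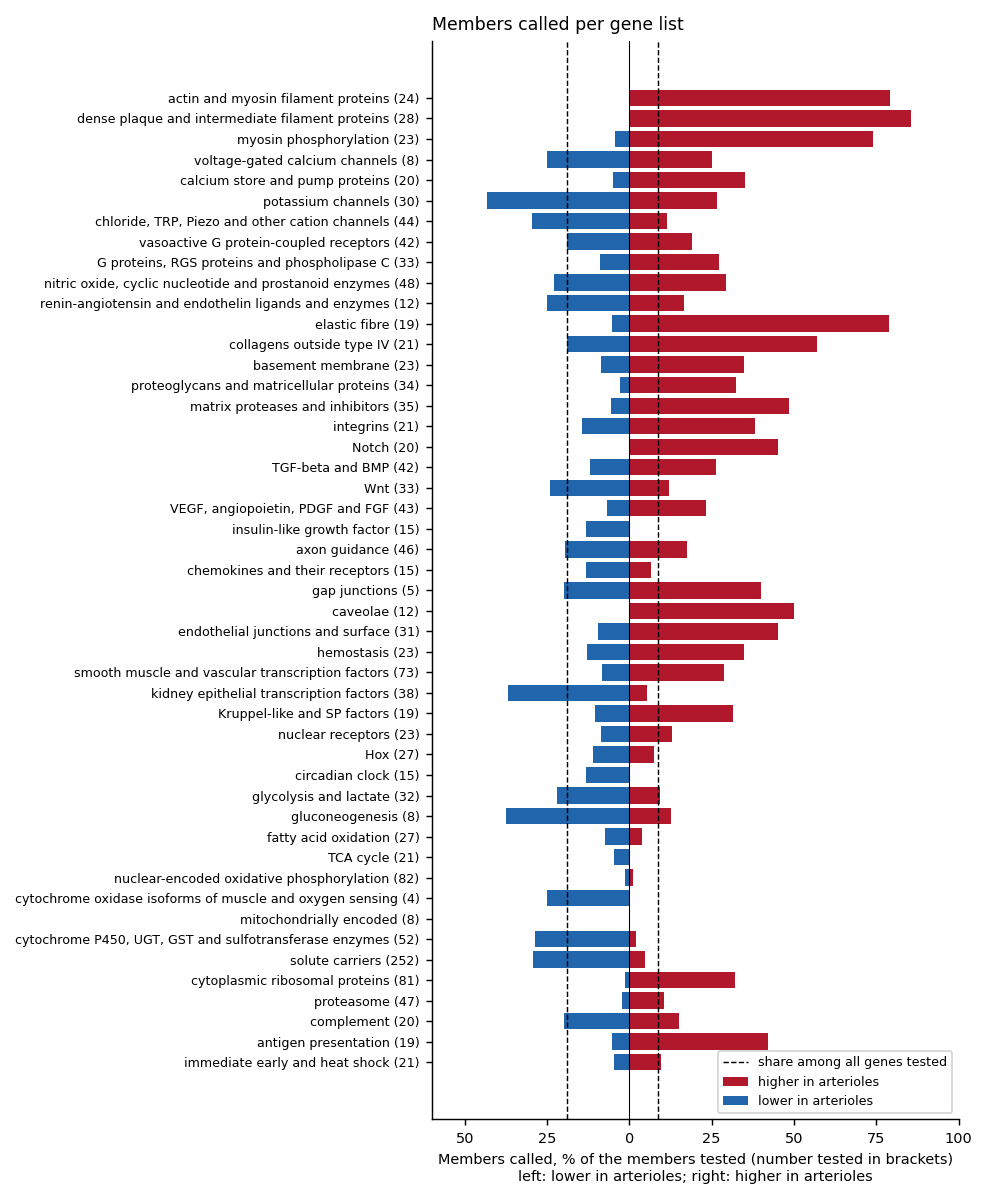
Share of the tested members of each gene list other than the cell type markers that were higher (red, to the right) or lower (blue, to the left) in arterioles, in %, with the number tested in brackets and dashed lines at the shares over all genes tested, 8.82% higher and 19.0% lower. Among these lists the contractile, dense plaque, elastic fibre and myosin phosphorylation lists had the longest bars to the right, and potassium channels, gluconeogenesis and epithelial transcription factors the longest to the left. The lists were chosen with earlier results of these data known, so the bars are a description and not a test.

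Of the glycolysis genes tested, 9.38% were higher and 21.9% lower, against 8.82% and 19.0% of all genes tested. Of the glycolysis and lactate list of 35 genes, 32 passed the low-count filter, 3 were higher (5 to 6 without arteriole 96 or 98) and 7 lower (4 without whole kidney 93, 98 or 100), with a median log2 fold change of 0.02 (of the opposite sign in 5 of 7 other fits, reaching -1.20). Hk1, the housekeeping hexokinase, Pkm, the pyruvate kinase outside liver and kidney cortex, and Gpi1 were higher: Hk1 was at 387, 380.4, 516 and 79.3 CPM against 55.3 to 89.2 CPM, Pkm at 996, 859, 473 and 373 CPM against 116 to 164 CPM and Gpi1 at 1083, 691, 464 and 469 CPM against 180.3 to 201 CPM. Pklr, the pyruvate kinase of liver and proximal tubule, was lower on 4 counts. Ldha and Ldhb, the lactate dehydrogenase chains, were lower, at 81.3, 178, 88.8 and 203 CPM and 369, 465, 201 and 255 CPM against 331 to 341 CPM and 629.8 to 700 CPM. All arteriole libraries were below whole kidney for both, but Ldha was not called without arteriole 98 or whole kidney 93, 96, 98 or 100 (log2 fold change -1.30 to -1.10, FDR 0.0516 to 0.103) and Ldhb was not called without arteriole 98 or 100 or whole kidney 93, 96, 98 or 100 (log2 fold change -1.09 to -0.86, FDR 0.0328 to 0.0818). Hk2, Pfkm and Pfkp were not called (FDR = 0.106, 0.188 and 0.479). Hk2 was called higher without arteriole 98 (log2 fold change 4.72, FDR 0.025), and Pfkm was called higher without arteriole 93 (log2 fold change 2.83, FDR 0.00286). Pgam1 was lower on 1 count.

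In the kidney, gluconeogenesis belongs to the proximal tubule. Of the list of 8 genes, 8 passed the low-count filter, 1 were higher and 3 lower, with a median log2 fold change of -1.64. Pck1, the cytosolic carboxykinase, was at 43.8, 311, 186 and 206 CPM against 842, 962, 572 and 581 CPM (log2 fold change -1.98 ± 0.52, FDR = 0.0134), whereas the mitochondrial form Pck2 was higher, at 198, 192, 192 and 128 CPM against 7.19, 8.69, 12.1 and 11.9 CPM (log2 fold change 4.16 ± 0.57, FDR = 0.000747). The 2 forms thus stood on opposite sides of whole kidney in every arteriole library. G6pc, the last enzyme of the pathway, was at 44.4, 167, 33.9 and 29.6 CPM against 230.3 to 287 CPM and called lower (FDR = 0.043), but was not called without arteriole 93, 98 or 100 or whole kidney 93, 96, 98 or 100 (log2 fold change -1.94 to -1.62, FDR 0.0674 to 0.117). Fbp1 missed the threshold (FDR = 0.0501) and was called lower without arteriole 98 (log2 fold change -1.64, FDR 0.00912), and Fbp2 was lower on 3 counts.

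Of the fatty acid oxidation list of 28 genes, 27 passed the low-count filter, 1 were higher (0 without arteriole 96 or whole kidney 93, 96, 98 or 100) and 2 lower (5 without arteriole 98 or 100), with a median log2 fold change of -0.94. Cd36, a fatty acid carrier of capillaries and tubules, was at 3.49, 2.64, 2.53 and 5.36 CPM against 177, 119, 154 and 174 CPM (log2 fold change -5.46 ± 0.68, FDR = 0.000592). Cpt1a and Acadm were not called (FDR = 0.957 and 0.179). Hadha was higher (log2 fold change 1.04), and was not called without arteriole 96 or whole kidney 93, 96, 98 or 100 (log2 fold change 0.72 to 1.09, FDR 0.0429 to 0.136). Of the TCA cycle list of 21 genes, 21 passed the low-count filter, 0 were higher by edgeR (0 at an unadjusted p, 0 by DESeq2, 0 by limma, 1 without arteriole 100) and 1 lower (0 without arteriole 93 or whole kidney 93, 96, 98 or 100 and 2 without arteriole 96, 98 or 100), with a median log2 fold change of -0.15 (of the opposite sign in 2 of 7 other fits, reaching 0.47). Cs and Ogdh were not called (FDR = 0.295 and 0.944), and Sdhd was lower at 0 to 1.96 CPM against 4.999 to 85.8 CPM but was not called without arteriole 93 or whole kidney 93, 96, 98 or 100 (log2 fold change -5.31 to -3.82, FDR 0.0551 to 0.137).

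Of the nuclear-encoded oxidative phosphorylation list of 85 genes, 82 passed the low-count filter, 1 were higher (0 without whole kidney 93, 96, 98 or 100 and 2 to 3 without arteriole 96 or 100) and 1 lower (2 to 9 without arteriole 93, 96, 98 or 100 or whole kidney 93 or 96), with a median log2 fold change of -0.02 (of the opposite sign in 3 of 7 other fits, reaching 0.48). Atp5b, a subunit of ATP synthase, was at 843, 1595, 1244 and 1553 CPM against 1362 to 1657 CPM, with overlapping values (log2 fold change -0.18 ± 0.23, FDR = 0.64). Ndufb7, a complex I subunit, was the higher member (log2 fold change 1.13) and was not called without arteriole 100 or whole kidney 93, 96, 98 or 100 (log2 fold change 0.89 to 1.22, FDR 0.0648 to 0.128). Ndufaf5, an assembly factor, was the lower one, on 5 counts. Ndufs1 was not called (FDR = 0.183) and was called lower without arteriole 100 (log2 fold change -2.87, FDR 0.00733). Of the mitochondrially encoded list of 13 genes, 8 passed the low-count filter, 0 were higher by edgeR (0 at an unadjusted p, 0 by DESeq2, 0 by limma) and 0 lower by edgeR (0 at an unadjusted p, 0 by DESeq2, 0 by limma, 1 without arteriole 96 or 100), with a median log2 fold change of -0.28 (of the opposite sign in 1 of 7 other fits, reaching 0.21). Its gene mt-Co1 was at 1100, 3093, 2047 and 1951 CPM against 2083 to 2435 CPM (FDR = 0.814). The mitochondrially encoded list took 4.19 to 6.49% of all counts in arterioles and 11.1 to 12.2% in whole kidney. The nuclear-encoded list took 2.31 to 2.73% and 3.75 to 4.24%. Neither share overlapped between the groups. Totals behind these shares were not normalised, whereas the fold changes and calls were on normalised totals, so the answer depends on the scaling. With DESeq2's size factors in place of TMM, the sign of the median changed for 3 of all lists, which are these energy lists. The median of all genes tested moved from 0.36 to 0.74, that of oxidative phosphorylation from -0.02 to 0.47, that of the TCA cycle from -0.15 to 0.46 and that of the mitochondrial genes from -0.28 to 0.21. Of the cytochrome oxidase isoforms of muscle and oxygen sensing, a list of 6 genes, 4 passed the low-count filter, 0 were higher by edgeR (1 at an unadjusted p, 2 by DESeq2, 0 by limma, 1 without arteriole 100) and 1 lower (2 to 4 without arteriole 93, 96, 98 or 100 or whole kidney 96), with a median log2 fold change of -0.45. Cox4i2 did not pass the filter, with 61 counts in arterioles, Cox7a1 was not called (FDR = 0.376) and was called lower without arteriole 100 (log2 fold change -3.77, FDR 0.0275), and Cox6a2 was lower on 1 count.

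The solute carriers, the longest list, gave the largest number of lower members of all lists. Among those tested 4.76% were higher and 29.4% lower, against 8.82% and 19.0% of all genes tested. Several shorter lists had a larger share lower, such as potassium channels (43.3%), gluconeogenesis (37.5%) and epithelial transcription factors (36.8%). Of the solute carriers, a list of 356 genes, 252 passed the low-count filter, 12 were higher (7 without whole kidney 100) and 74 lower, with a median log2 fold change of -0.97. The phosphate carrier gene Slc34a1 of the proximal tubule was at 742, 1638, 1499 and 1374 CPM against 2873, 2473, 2766 and 2640 CPM (log2 fold change -1.02 ± 0.24, FDR = 0.00803), and it was not called without arteriole 93 or whole kidney 93 (log2 fold change -0.99 to -0.81, FDR 0.00234 to 0.0252). The cotransporter gene Slc12a1 of the thick ascending limb was at 2.91, 3.22, 8.96 and 84.8 CPM against 378, 543, 455 and 409 CPM (log2 fold change -4.15 ± 1.07, FDR = 0.0127), with arteriole 100 above the other three. The sulfate carrier gene Slc13a1 was lower (log2 fold change -4.95), at 3.88 to 6.78 CPM against 141 to 196 CPM. Slc12a3 of the distal tubule and Slc22a6, the organic anion carrier, had 1 high arteriole library each and were not called (FDR = 0.113 and 0.0839). Slc12a3 was called lower without arteriole 98 (log2 fold change -5.17, FDR 0.000738), and Slc22a6 was called lower without arteriole 100 (log2 fold change -3.58, FDR 0.00314).

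Among the 12 higher carriers, Slc4a3, an anion exchanger of excitable tissue, was at 925, 433, 574 and 446 CPM against 10.8, 11.9, 10.7 and 9.77 CPM (log2 fold change 5.79 ± 0.43, FDR = 3.38e-05), and Slco2a1, the prostaglandin carrier of endothelium, at 386, 316, 402 and 626 CPM against 19.8, 18.5, 16.6 and 19.5 CPM (log2 fold change 4.55 ± 0.41, FDR = 9.25e-05). Both were above whole kidney in every arteriole library. Slc9a3r2, a scaffold named with this family, was higher by 4.02.

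Of the cytochrome P450, UGT, GST and sulfotransferase list of 118 genes, 52 passed the low-count filter, 1 were higher (0 without whole kidney 93, 96, 98 or 100 and 2 without arteriole 93, 96, 98 or 100) and 15 lower (25 without arteriole 100), with a median log2 fold change of -1.93. Cyp2j5 and Cyp4b1, abundant in the kidney, were at 201, 164, 187 and 356 CPM and 75.8, 203, 414 and 491 CPM against 1029 to 1273 CPM and 848 to 1553 CPM. Both were below whole kidney in every arteriole library. Cyp2e1 was lower (log2 fold change -2.16) but was not called without arteriole 93 or 98 or whole kidney 93, 96, 98 or 100 (log2 fold change -2.27 to -2.04, FDR 0.0578 to 0.0809). Gsta2 was not called (FDR = 0.0607) and was called lower without arteriole 98 (log2 fold change -5.55, FDR 0.00173). Gstm2, a glutathione transferase of muscle, was the higher member, at 124, 131, 267 and 278 CPM against 43.7 to 64.3 CPM, but was not called without whole kidney 93, 96, 98 or 100 (log2 fold change 1.73 to 1.89, FDR 0.058 to 0.0698). Cyp2r1, Cyp2s1 and Sult1b1 were lower on 1, 1 and 0 counts.

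Of the cytoplasmic ribosomal proteins, a list of 83 genes, 81 passed the low-count filter, 26 were higher and 1 lower (2 to 3 without arteriole 96 or 100), with a median log2 fold change of 0.96. Rpl37a was at 1971, 1817, 1494 and 2201 CPM against 469 to 529 CPM (log2 fold change 1.92 ± 0.21, FDR = 0.00028), and Rps21 and Rps29 were higher by 1.47 and 1.70. Rplp0, often used as a reference gene, was at 276, 461, 682 and 670.5 CPM against 320.5 to 369 CPM and not called (FDR = 0.239). The higher members numbered 34 with DESeq2's size factors and 21 in the fit of all 20 libraries. Ribosomal protein genes have many processed copies. The paper does not say how reads of near-identical copies were counted, which may affect these values. Rpl3l, a muscle form, had 0 counts in arterioles. Of the proteasome list of 49 genes, 47 passed the low-count filter, 5 were higher (3 without whole kidney 93, 96, 98 or 100) and 1 lower (2 without arteriole 98), with a median log2 fold change of 0.36 (of the opposite sign in 2 of 7 other fits, reaching -0.65). Psme1, Psme2 and Psmb10, parts of the immune form, were higher by 2.63, 2.78 and 3.83, and the assembly factor Psmg1 was lower on 1 count against 12.8 to 20.7 CPM.

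Several genes of antigen presentation were higher as well. Of the list of 21 genes, 19 passed the low-count filter, 8 were higher (5 without whole kidney 93, 98 or 100) and 1 lower (0 without whole kidney 98 or 100 and 2 to 3 without arteriole 93 or 98), with a median log2 fold change of 1.77. The class I genes H2-K1 and H2-D1 were at 799.8, 522, 876 and 713 CPM and 214, 924, 905 and 840 CPM against 108 to 134 CPM and 107 to 127 CPM, and B2m, their light chain, at 588, 2261, 1133 and 1575 CPM against 242 to 326 CPM. None of these arteriole values fell into the whole kidney range. H2-Aa of class II was higher by 1.80, and H2-T23 was lower (log2 fold change -2.73) but was not called without arteriole 96 or 100 or whole kidney 93, 98 or 100 (log2 fold change -2.84 to -2.39, FDR 0.0502 to 0.0717). How reads of near-identical H2 genes were counted is not stated in the paper, which may affect these values. Leukocyte markers took 0.0863, 0.0246, 0.0351 and 0.061% of counts in arterioles and 0.0241 to 0.0313% in whole kidney, and the pan-leukocyte gene Ptprc was at 114, 0.439, 19.99 and 27.7 CPM and 5.73 to 8.34 CPM. Ptprc was called higher without arteriole 96 (log2 fold change 2.97, FDR 0.0265). The macrophage gene Cd68 was called lower without arteriole 93 (log2 fold change -8.29, FDR 0.00204). Of the leukocyte list of 17 genes, 14 passed the low-count filter, 1 was higher and 2 lower. These were 7.14% and 14.3%, against 8.82% and 19.0% of all genes tested. With 1 library left out, 0 to 4 were higher and 1 to 5 lower. The median log2 fold change was 1.78 (of the opposite sign in 2 of 7 other fits, reaching -1.47). Of the complement list of 27 genes, 20 passed the low-count filter, 3 were higher and 4 lower, with a median log2 fold change of 0.33 (of the opposite sign in 2 of 7 other fits, reaching -2.42). Serping1, the C1 inhibitor, was at 667, 904, 997 and 459 CPM against 100.1 to 120.5 CPM (log2 fold change 2.80 ± 0.33, FDR = 0.000518), and C1s1 was higher by 3.66. C3 and C4b were not called (FDR = 0.804 and 0.921), C3 was called lower without arteriole 100 (log2 fold change -4.43, FDR 0.00804), and C4b was called lower without arteriole 98 (log2 fold change -4.79, FDR 0.00407). C3ar1 and Cd55 were lower on 1 and 1 count.

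Tissue handling can induce early response genes within minutes. Of the immediate early and heat shock list of 26 genes, 21 passed the low-count filter, 2 were higher (1 without whole kidney 93, 96 or 98 and 4 without arteriole 100) and 1 lower (0 without whole kidney 93, 96, 98 or 100 and 2 without arteriole 93, 98 or 100), with a median log2 fold change of 1.00. Fos was at 0.194, 0, 2.87 and 0 CPM against 0.583 to 1.90 CPM, low in both groups and not called (FDR = 0.78), and was called lower without arteriole 98 (log2 fold change -4.06, FDR 0.00618). Egr1 and Hspa1a were not called (FDR = 0.262 and 0.737). Hspb1, a small heat shock protein of muscle, was higher, at 863, 5398, 447 and 314 CPM against 29.2 to 67.4 CPM (log2 fold change 5.26 ± 0.94, FDR = 0.00179), with arteriole 96 standing out. Jun was higher by 2.61 but was not called without whole kidney 93, 96 or 98 (log2 fold change 2.47 to 2.51, FDR 0.064 to 0.0682), and Zfp36 was lower but was not called without whole kidney 93, 96, 98 or 100 (log2 fold change -3.48 to -3.16, FDR 0.0744 to 0.0882).

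Nerve and remaining cell markers were also read. Stmn2, a neuronal protein, was higher, at 42.5, 443, 154 and 29.1 CPM against 0.724 to 1.46 CPM (log2 fold change 7.36 ± 1.12, FDR = 0.000993), but the enzymes that define sympathetic axons, Th and Dbh, had 0 and 1 counts in arterioles, and Npy, their cotransmitter, had 0 against 4.37 to 10.8 CPM. Cspg4, the proteoglycan NG2 of mural cells, was at 576, 1214, 356 and 176 CPM against 10.4 to 16.7 CPM (log2 fold change 5.38 ± 0.64, FDR = 0.00052), and Ptn, in the same mesangial and pericyte list, was lower (log2 fold change -3.01). Adipoq and Plin1 of adipocytes had 1 and 3 counts in arterioles against 790 and 933 in whole kidney. Of the adipocyte list of 10 genes, however, 4 passed the low-count filter, and 0 were higher and 0 lower by edgeR. DESeq2 called 1 higher and 4 lower, and limma 0 and 0. The list's shares of counts overlapped, at 0.0414, 0.00639, 0.0227 and 0.0276% in arterioles. In whole kidney they were 0.0267, 0.0168, 0.0944 and 0.1055%.

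Outside all lists, 673 higher genes reached 10 CPM in each arteriole library, and the 12 with the largest differences are given here, with 1 predicted gene passed over. Mall, a MAL-like membrane protein, was at 1208, 1495, 311 and 287 CPM against 2.14, 1.85, 2.65 and 3.08 CPM (log2 fold change 8.41 ± 0.74, FDR = 8.36e-05). Glp1r, the receptor for glucagon-like peptide 1, was at 123.2, 384, 122.8 and 466 CPM against 1.26, 0.652, 2.65 and 1.36 CPM (log2 fold change 7.52 ± 0.83, FDR = 0.000334), and the groups were far apart for both. Nkx6-1, a homeobox factor known from the pancreas, was at 84.8, 119.6, 47.0 and 93.4 CPM against 0.0905 to 0.993 CPM (log2 fold change 7.70 ± 1.23, FDR = 0.00112). Carmn, a long non-coding RNA of smooth muscle and host of miR-143 and miR-145, was at 197, 416, 229 and 46.1 CPM against 0.543 to 1.81 CPM (log2 fold change 7.91 ± 0.94, FDR = 0.000535). Mustn1, a small nuclear protein of muscle and skeleton, was at 751, 1344, 488 and 590.4 CPM against 4.57 to 6.35 CPM (log2 fold change 7.13 ± 0.48, FDR = 1.87e-05). The others were Cap2, Tppp3, Wfdc1, Grip2, Mark1, Ptprr and Cytl1, with log2 fold changes of 7.49, 7.46, 7.10, 6.98, 6.96, 6.93 and 6.92. Each of the 12 was called in all 8 fits with a library left out.

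On the lower side 461 genes outside the lists reached 10 CPM in each whole kidney library, and 4 predicted genes were passed over. The phospholipase gene Pla1a was read 0 times in arterioles and at 13.7, 17.7, 15.6 and 11.4 CPM in whole kidney, at least 128-fold lower at the 3-count floor. Cck, the gene for cholecystokinin, had 1 count against 29.9, 36.0, 26.5 and 38.8 CPM. Cyp7b1, an oxysterol hydroxylase, was at 0.194, 0.879, 1.26 and 1.43 CPM against 191, 166, 161 and 158 CPM (log2 fold change -7.45 ± 0.83, FDR = 0.000348), and Pou3f3, a factor of the nephron, at 0.388, 0.293, 0.23 and 0.179 CPM against 51.8, 58.1, 60.6 and 56.8 CPM (log2 fold change -7.63 ± 1.12, FDR = 0.000908). All arteriole values of these 4 genes were below 2 CPM. Rab25 and Crb3, of the epithelial apical membrane, had 1 and 2 counts, and Epb41l4b, Hmgxb4, Rab11fip4, Ggct, Pdss2 and Gtf2h2 had 2, 1, 2, 9, 2 and 3.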

How the data were processed

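The deposited table held HTSeq gene counts, which the authors made from single-end QuantSeq 3′ mRNA reads trimmed with bbduk, aligned with STAR 2.7 and counted against GRCm38.p6 genes. Reads come from transcript 3′ ends, so counts were not divided by length, and levels were not compared between genes. The sources used here do not give the strand setting of the counting, nor what the header's 4 hours mean for control columns. A further 148 value columns match none of the 20 samples and were not used. The submitters' notes name FastQC 0.11.8, MultiQC 1.7, SAMtools 1.9, featureCounts and GRCm39 as well.

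Counts of the 8 libraries were filtered with filterByExpr, scaled by TMM and tested with edgeR 4.0.16 (R 4.3.3; quasi-likelihood F-test, version 3 form), contrast arterioles over whole kidney, with Benjamini-Hochberg adjustment. CPM were computed over TMM-scaled totals. The procedure was run on simulated data in which both groups had the same spread. The libraries here did not (median coefficient of variation 68.3% and 11.3%), so error rates under an unequal spread were not tested. The members and lists were chosen with earlier results of these data known. From each of 66 lists the text could name genes marked as central, up to 4 called members by smallest p, up to 2 called members opposite in sign to the list's median, and from no list the 12 most changed genes per direction at 10 CPM or more. Alternatives were DESeq2 1.42.0, limma 3.58.1 (voom), DESeq2's size factors (RLE), the edgeR version 4 form, other filters, all 20 libraries, the library number as a block, and each library left out. Promoters came from RefSeq. Over all lists 1652 of 2350 genes passed the filter, of which 366 were higher and 258 lower. The 341 lower genes with 0 counts in arterioles are given as bounds at 3 counts over the group, and putting them at their bound changed the median of 0 of 67 sets. Floors cover counting error only, whereas the SDs and the standard errors of the fit include the spread between libraries. Library totals are given above, and precision is limited by the 4 libraries per group. Some named genes are not reported here.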

Additional observations from a re-analysis of the deposited data

Results flagged for a closer look

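For the 148 genes whose arteriole values are given per library, 296 groups of 4 libraries (148 of each kind) were checked for a library that stood apart from the other three, by the gap to the nearest library over the group's range, past Dixon's critical value. There were 35, 29 among arterioles and 6 among whole kidney. Dixon's value lets about 1 in 20 groups pass where values are normally distributed. The check used untransformed CPM, and the genes were those picked for printing per library. The 35 therefore cannot be read as an excess over that rate.

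Arteriole 96 stood apart for 15 genes, each time above the other arterioles: Ren1 (23.6 CPM), Cacna2d1 (301 CPM), Agtr1a (453 CPM), Gucy1b1 (23.9 CPM), Ece1 (711 CPM), Col8a1 (468 CPM), Hspg2 (1375 CPM), Itga8 (777 CPM), Nkd1 (847 CPM), Angpt2 (214 CPM), Ephb4 (141 CPM), Cx3cl1 (577 CPM), Gata3 (423 CPM), G6pc (167 CPM) and Hspb1 (5398 CPM). Arteriole 96 also had the lowest normalisation factor, 0.597 against 0.842, 0.988 and 0.865 in arterioles 93, 98 and 100. A lower factor raises every CPM of its library. That library had the largest arteriole total (11443164 counts) but the fewest genes over 10 counts (6038, against 6832 to 8751). The part of these traits in its high values was not tested. In arteriole 98 the high values were those of Kcnj8 (14.8 CPM), Pde5a (23.2 CPM) and Fos (2.87 CPM). In arteriole 100 they were those of Kcnj1 (4.82 CPM), Ptgir (53.6 CPM), Itga5 (109.6 CPM), Pax8 (1.43 CPM) and Slc12a1 (84.8 CPM), whereas Pck2 was low (128 CPM). Arteriole 93 was high for Adamts2 (287 CPM), Gja1 (52.8 CPM) and Nr3c2 (137 CPM) and low for Ace (0.582 CPM) and H2-D1 (214 CPM). Among whole kidney libraries, number 96 was high for Flna (93.6 CPM) and P2rx1 (3.15 CPM) and low for B2m (242 CPM), number 93 was high for Id3 (106 CPM) and low for H2-K1 (108 CPM), and number 100 was high for Carmn (1.81 CPM).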

How the results depend on the processing

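Against 1125 higher and 2424 lower genes, DESeq2, run without the low-count filter on 24100 genes, gave 2137 and 3805, the edgeR version 4 form 1934 and 2947, no filter 1315 and 4666, a filter at 10 CPM 925 and 693, and the fit of all 20 libraries 798 and 760. The other 2 alternatives, DESeq2's size factors and voom, gave 1358 and 839 higher genes and 2357 and 2623 lower. The causes of these shifts were not tested, except that the filters change how many genes are tested (24100 and 8379 against 12757). Leaving out each library in turn gave 766 to 1519 higher and 2274 to 4095 lower genes, and a difference in genes detected of -7792 to -7058 (added after seeing the data, as was thinning, which gave -7360). No gene called in the fit of the 8 libraries was called in the opposite direction under any of these 16 alternatives.

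With the library number as a replicate block 598 genes were higher and 2361 lower. Equal numbers did not deviate together (correlations -0.048, -0.016, 0.019 and 0.001). No source used here says whether equal numbers are 1 mouse. Of 381 named genes, the block left 334 on the same side of the threshold, 43 lost and 4 gained a call. The fit of all 20 libraries left 286 of 380 on the same side, 87 lost (FDR 0.0504 to 0.429) and 7 gained a call. Voom left 337 of 381, with 39 lost (FDR 0.0523 to 0.362) and 5 gained. Calls given above that were lost with all 20 libraries were those of Dapk3, Cacnb4, Cacnb2, Srl, Kcng1, Ano1, Scn2b, Trpv5, Trpm3, Ednra, P2ry6, Aplnr, Rgs4, Plcd4, Prkcb, Gucy1a1, Arg2, Edn3, Akr1b7, Fbn1, Loxl3, Col26a1, Col5a3, Lama1, Mmp13, Adamts4, Itgal, Itgax, Dll4, Bmpr1b, Rnf43, Wnt5b, Notum, Tek, Nrg1, Igfbp6, Stc1, Slit3, Robo3, Efna4, Ephb2, Cxcl9, Gjc1, Cav1, Cdh2, Ocln, Tfpi2, Snai1, Grhl2, Sim1, Skil, Klf4, Klf11, Nr3c1, Nr6a1, Esr1, Hoxa4, Cry1, Cry2, Hk1, Ldha, Ldhb, Pklr, Fbp2, Hadha, Sdhd, Ndufaf5, Ndufb7, Cox6a2, Cyp2s1, Gstm2, Psme2, C3ar1, Cd55, H2-T23, Zfp36, Ptn, Nphs1, Rab25 and Hmgxb4. With voom, but not with all 20 libraries, the calls of Flt1, Pdgfrb, Thra, G6pc, Pck1, Cyp2e1, Cyp4b1, Slc34a1 and Jun were lost.

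Among named genes without a call, a fit with 1 arteriole library left out called 10 lower whose fitted value with all 8 libraries was positive: Ptgir at -6.39 (log2 fold change, without arteriole 100), Gucy1b1 -2.33, Angpt2 -5.82 and Pf4 -4.02 (without 96), Pde5a -3.73 and C4b -4.79 (without 98), and Gja1 -3.62, Nr3c2 -4.39, Prox1 -6.51 and Cd68 -8.29 (without 93). Their highest values with another library left out were Ptgir 4.02, Gucy1b1 0.88, Angpt2 2.87, Pf4 4.20, Pde5a 0.95, C4b 0.75, Gja1 2.29, Nr3c2 3.93, Prox1 2.37 and Cd68 3.48. Leaving out a whole kidney library, which leaves 3 against 4 libraries, cost 26 to 28 named calls and gained none, and leaving out an arteriole library cost 4 to 8 and gained 6 to 16 beside those just named. The spread between arterioles limits single genes: 5613 tested genes were under 1 CPM in 1 arteriole library and at 10 CPM or more in another.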
